A study of Mus musculus with 12 samples.

Results

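Alveolar macrophages of vehicle-treated mice make up 6 of the 12 arrays of a study of mouse lung, and their absolute transcript signals are described here. The members were taken by label: every array whose sample is named as a control alveolar macrophage sample entered, and each held the RNA of a separate animal. The mice were of the C57Bl/6 strain, carried no named allele, and had received 35% surfactant in saline by oropharyngeal instillation. That vehicle was also the carrier of the nanotubes that the other 6 mice of the study received. The cells were collected by lavage at day 60, were over 90% pure per the labels, and were measured on Illumina Mouse WG-6 v2 BeadChips, on which beads carry gene-specific probes. The labels used here give neither age nor sex. The arrays of nanotube-treated mice enter none of the values, so these animals stand for vehicle-treated lung and not for lung without instillation.

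Alveolar macrophages are the resident phagocytes of the airspaces. They settle in the lung around birth, depend on the growth factor GM-CSF and on the nuclear receptor PPAR-gamma, and renew themselves locally. They take up inhaled particles, microbes and dying cells, and they clear spent surfactant lipid. They are known for high levels of lysozyme, chitinase-like proteins, lysosomal enzymes and lipid-handling genes, and for little of the integrin CD11b, which marks monocyte-derived cells.

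A probe was called detected on an array where its deposited detection p-value was under 0.05, which sets it against the negative-control beads of that array. A gene was called on where at least 1 of its probes was detected on all 6 arrays, off where none of its probes was detected on any array, and intermediate otherwise. Of 19038 named genes, 8522 were on (44.8%), 8581 were off (45.1%) and 1935 were intermediate. Every count of list members on given below is to be read against that 44.8%. At a detection p under 0.01 in place of 0.05, 7942 were on (41.7%). Off means not well above background with the probes of this array, and it does not show that the transcript was lacking: among the 5255 on genes with several probes, 1966 had every probe on and 2555 had at least 1 probe that was detected nowhere. Levels below are means of normalised log2 signals ± SD over the 6 arrays (n = 6) for the probe of the gene with the highest mean. Genes on had levels of 5.47 to 15.16 with a median of 9.23, and genes off had a median of 4.64. Signal depends on the probe as well as on the transcript, so the order of genes is an order of signals and not of copies per cell. In RNA pooled from a lavage, fewer cells of a type and less RNA per cell cannot be told apart.

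The arrays were close to each other in the share of probes detected, but arrays 1 and 2 were brighter before normalisation. Between 38.0% and 39.3% of all 45281 probes were detected per array. The background of the arrays lay between 131.8 and 148.8 scanner units. The median signal was 160.0 units on array 1 and 153.2 on array 2, and between 140.4 and 145.1 on the other arrays. The highest signal was 46154 units on array 1 and 39269 on array 2, and between 35241 and 37638 on the other arrays. Pearson correlations between pairs of arrays over the 15416 probes detected on all 6 (34.0% of probes) ran from 0.976 to 0.994. Array 1 took part in the lowest of them, had the highest background and stood apart in more genes than any other array, as described below. Scanner units in the text are the deposited signals before background subtraction.

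The label was first held against the 5 markers given for alveolar macrophages, and all of them were on. Chil3, which encodes the secreted chitinase-like protein Ym1, had a lowest, median and highest signal of 24067, 25387 and 27377 scanner units and a level of 14.64 ± 0.086. Krt79, a keratin known as a marker of mouse alveolar macrophages, had 12041, 13796 and 17117 units (13.79 ± 0.11). Car4, a membrane carbonic anhydrase, had 8079, 10383 and 11856 units (13.31 ± 0.13). All 6 arrays of these genes lay within 1.22-fold of each other after normalisation. Pparg, the nuclear receptor that directs the differentiation of these cells, had 5084, 6474 and 8440 units (12.64 ± 0.19), highest on array 5 and lowest on array 3. Marco, a scavenger receptor for particles and bacteria, had the lowest signal of the 5, with 1095, 1500 and 2199 units (10.45 ± 0.19). Its highest array exceeded its lowest by 1.45-fold after normalisation.

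Of 27 measured genes of resident alveolar macrophages, 22 were on and 5 were off, against 44.8% of all genes on. Those on included Mrc1, the mannose receptor (14.29 ± 0.08), Ear10, an eosinophil-associated ribonuclease (12.95 ± 0.10), Ctsk, the collagen-degrading cathepsin K (13.54 ± 0.14), and Itgax, the integrin CD11c (9.10 ± 0.26). The 5 that were off were Siglecf, Fabp4, Fabp1, Atp6v0d2 and Olr1. Siglecf, the sialic acid-binding surface receptor by which mouse alveolar macrophages are commonly sorted, had a median of 154.2 scanner units on its only probe, near background on every array. Fabp4, a fatty acid-binding protein known to be abundant in these cells, had a median of 132.4 units, also on 1 probe. The measured genes thus went with the label in 22 cases and against it in 5, Siglecf and Fabp4 among them. The list was chosen with earlier results of these data known, so this count is a description and no test of the label. Among 13 measured genes shared by macrophages in general, 12 were on and 1 was off. The exception was Itgam, which encodes CD11b, with 1 probe and a level of 4.68 ± 0.081.

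**Figure D1:**
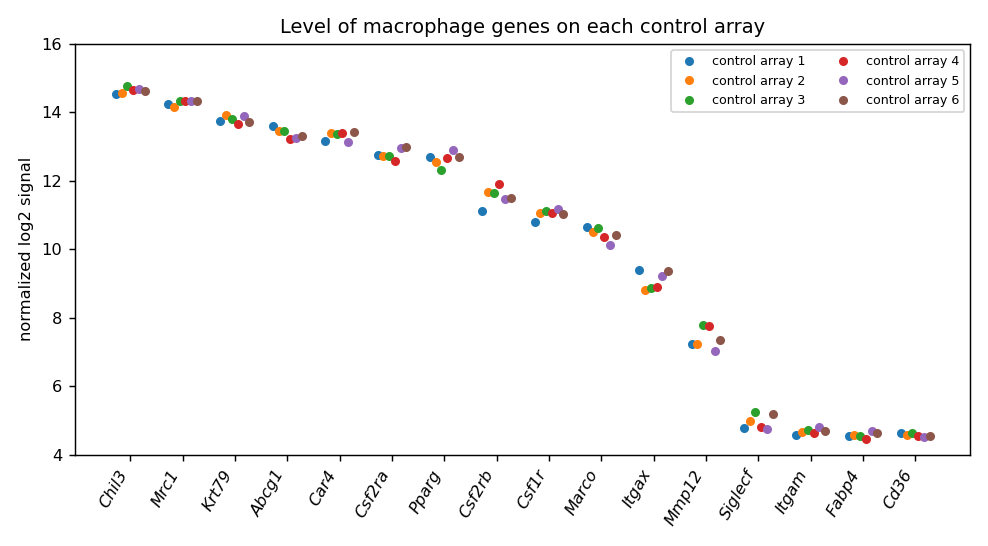
Normalised log2 levels of selected resident alveolar macrophage genes and macrophage genes on the 6 control arrays, 1 point per array. The off genes Siglecf, Itgam, Fabp4 and Cd36 lie near the background level. Chil3 lies near 14.64 with an SD of 0.086, and Marco near 10.45 with an SD of 0.19.

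The 30 brightest genes had levels between 14.75 and 15.16, and the array medians of their signals lay between 26513 and 36295 scanner units. Secreted and lysosomal products of phagocytes were among them. Lpl, lipoprotein lipase, had a lowest, median and highest signal of 31223, 33380 and 38562 units. Psap, the precursor of the saposins that help break down sphingolipids in the lysosome, had 31143, 33414 and 39097 units. After normalisation the highest array of Psap exceeded the lowest by 1.09-fold, and the arrays of Lpl were hardly further apart. No saturation limit was given, so whether the narrow spread of the brightest probes came from the upper end of the scanner's range was not tested. Lyz2 and Lyz1, the bactericidal lysozymes, had levels of 14.97 ± 0.11 and 14.91 ± 0.11, and Ear3, a ribonuclease of the eosinophil-associated family, had 15.02 ± 0.06. Fth1, the heavy chain of the iron store ferritin, had 14.98 ± 0.05. Gpx1, which reduces peroxides with glutathione, had 15.03 ± 0.06, and Mt1, a metal-binding metallothionein, had 15.11 ± 0.09. Surface and signalling genes of the same rank were Fcer1g, the signalling chain shared by activating Fc receptors (14.99 ± 0.07), Cd9, a tetraspanin (14.79 ± 0.03), Axl, a receptor for dying cells (14.75 ± 0.04), and Laptm5, a lysosomal membrane protein of leukocytes (14.83 ± 0.08). Cebpb was the only gene from the transcription factor list among the 30, at 14.88 ± 0.11. It encodes a leucine zipper factor of myeloid cells. Ribosomal protein genes made up 7 of the 30, and cytoskeletal and housekeeping genes such as Actb, Tuba1b and Eef1a1 were also present.

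Some of these names cannot be assigned with certainty, because near-identical genes can share signal on short probes. Lyz2 had 3 probes with levels of 14.97, 13.89 and 7.58, and Lyz1 had 3 with 14.91, 7.98 and 6.70. For Chil3 the 3 probes had 14.64, 14.48 and 13.64. Its neighbour in sequence Chil4, which encodes the chitinase-like protein Ym2, had 1 probe at 14.75 and 1 off at 4.58, so the Ym1 and Ym2 signals may overlap. Of the Ear family, Ear3, Ear10 and Ear6 were on and Ear14 was off. Ear6 had a level of 8.83 ± 0.33.

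Surface receptors for particles were on in 18 of 31 cases, against 44.8% of all genes. Of 15 scavenger receptors 8 were on and 6 were off, a share on near that of all genes, and of 16 C-type lectins and siglecs, 10 were on and 5 were off. The lectins on included Clec4n, which encodes the fungal receptor Dectin-2 (13.50 ± 0.11), Clec7a, which encodes the beta-glucan receptor Dectin-1 (12.74 ± 0.17), and Siglec1, a sialic acid receptor of macrophages (11.71 ± 0.07). Clec7a had 5262, 6674 and 9809 scanner units as its lowest, median and highest signal. Trem2, a lipid-sensing receptor, was on at 10.83 ± 0.15, and Scarb2, a lysosomal membrane protein of the scavenger receptor family, at 11.16 ± 0.21. Cd36, the fatty acid and oxidised lipid receptor, Cd163, the haemoglobin scavenger receptor, Stab2 and Scara3 were off. Clec10a and Cd209a, lectins known from other macrophages and dendritic cells, were off as well.

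Receptors that sense microbes were on in 25 of 32 cases, and 6 were off. Tlr2, the receptor for bacterial lipopeptides, had the brightest signal of the Toll-like receptors, with 15159, 16919 and 22408 scanner units (14.11 ± 0.09). Tlr7, an endosomal receptor for single-stranded RNA, had 3452, 4012 and 5256 units (11.99 ± 0.15). Tlr4, the receptor for lipopolysaccharide, had 1305, 1563 and 2130 units (10.57 ± 0.15). The arrays lay within 1.36-fold of each other for these 3 genes. Tlr13, which senses bacterial ribosomal RNA, was on at 10.61 ± 0.22, and Tlr8 was on at 10.24 ± 0.39 with its lowest value on array 1. Tlr1, Tlr3, Tlr9, Tlr11 and Tlr12 were off, of which Tlr3 recognises double-stranded RNA and Tlr9 recognises DNA. Cd14, the co-receptor of Tlr4, spread more than the receptors did. Its level was 12.05 ± 0.44, with 2.11-fold between array 2 and array 6. Among adaptors and cytosolic sensors, Myd88, the shared adaptor of Toll-like receptors, had 13.14 ± 0.16, Casp1, the protease of the inflammasome, 12.82 ± 0.10, and Nod1, a sensor of peptidoglycan, 11.29 ± 0.17. Ifih1, which encodes the RNA sensor MDA5, was the only off gene among 13 cytosolic sensors.

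Of 9 Fc receptors 6 were on, and of 10 complement receptors and integrins 6 were on, against 44.8% of all genes. Fcgrt, the neonatal Fc receptor that recycles IgG, had a level of 14.02 ± 0.14. Fcgr4, an activating IgG receptor, had 13.01 ± 0.13, Fcgr3, another activating one, had 12.38 ± 0.23, and Fcgr2b, the inhibitory one, had 12.11 ± 0.23. Fcgr3 and Fcgr2b were both lowest on array 1. Itgal, which encodes CD11a, was on, as were Itgad, which encodes CD11d (10.45 ± 0.28), and their partner chain Itgb2 (9.92 ± 0.21). C3ar1, Cr2 and Vsig4, receptors for complement fragments, were off.

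All 5 colony-stimulating factor receptor genes were on. Csf2ra, the alpha chain of the GM-CSF receptor, had 5588, 7293 and 8688 scanner units (12.78 ± 0.16). Csf2rb, its signalling chain, had 2611, 3103 and 3663 units (11.56 ± 0.26). Csf1r, the M-CSF receptor, had 2041, 2178 and 2449 units (11.04 ± 0.13). Csf2rb and Csf1r were both lowest on array 1, whereas Csf2ra was lowest on array 4. Csf1 and Csf2, the genes of M-CSF and GM-CSF themselves, were off. Of 11 receptors of the TNF and TGF-beta families 10 were on and none was off, with Tgfbr1 at 13.84 ± 0.14 and Tgfbr2 at 13.32 ± 0.11, which together form the TGF-beta receptor. Interferon receptor genes on were Ifngr1 (10.92 ± 0.21), Ifngr2 and Ifnar2, and Ifnar1 was off with 1 probe. Interleukin receptors were on in 11 of 18 cases (61.1%, against 44.8% of all genes). Il13ra1, a chain of the IL-13 receptor, had 11.03 ± 0.09 and Il10ra, the ligand-binding chain of the IL-10 receptor, had 11.01 ± 0.26. Il13ra2, Il1r2, Il2ra and Il21r were off.

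Chemoattractant receptors were the receptor group with the smallest share on, at 7 of 23, and 12 were off. Fpr2, a formyl peptide receptor, had 17018, 18691 and 23510 scanner units (14.24 ± 0.04). Cxcr4, the receptor of CXCL12, had 1617, 2489 and 3414 units (11.22 ± 0.37), and Cxcr1 had 1264, 1598 and 1860 units (10.51 ± 0.16). The spread of Cxcr4 came to 1.97-fold between array 3 and array 5. Ccr1, Ccr2, Ccr3, Ccr4 and Ccr8 were off, and Ccr2 is the receptor by which monocytes leave the bone marrow.

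Antigen presentation genes were on in 28 of 30 cases. All 7 class II genes were on, among them Cd74, the invariant chain (14.70 ± 0.11), H2-Ab1, a class II beta chain (14.40 ± 0.10), and H2-DMa, which loads peptides (13.97 ± 0.10). Each of these was highest on array 2 and lowest on array 3. All 6 class I genes were on, with B2m, the shared light chain, at 14.54 ± 0.07. The costimulators Cd86 (9.47 ± 0.28) and Cd80 (8.66 ± 0.17) were on, as was Cd274, which encodes the checkpoint ligand PD-L1 (12.12 ± 0.26). Tnfsf4 and Tnfsf9, which encode OX40 ligand and 4-1BB ligand, were off. All 7 genes of the inhibitory receptor group were on, including Sirpa, the receptor for CD47 (14.72 ± 0.08), and Cd47 itself (13.69 ± 0.11).

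**Figure D2:**
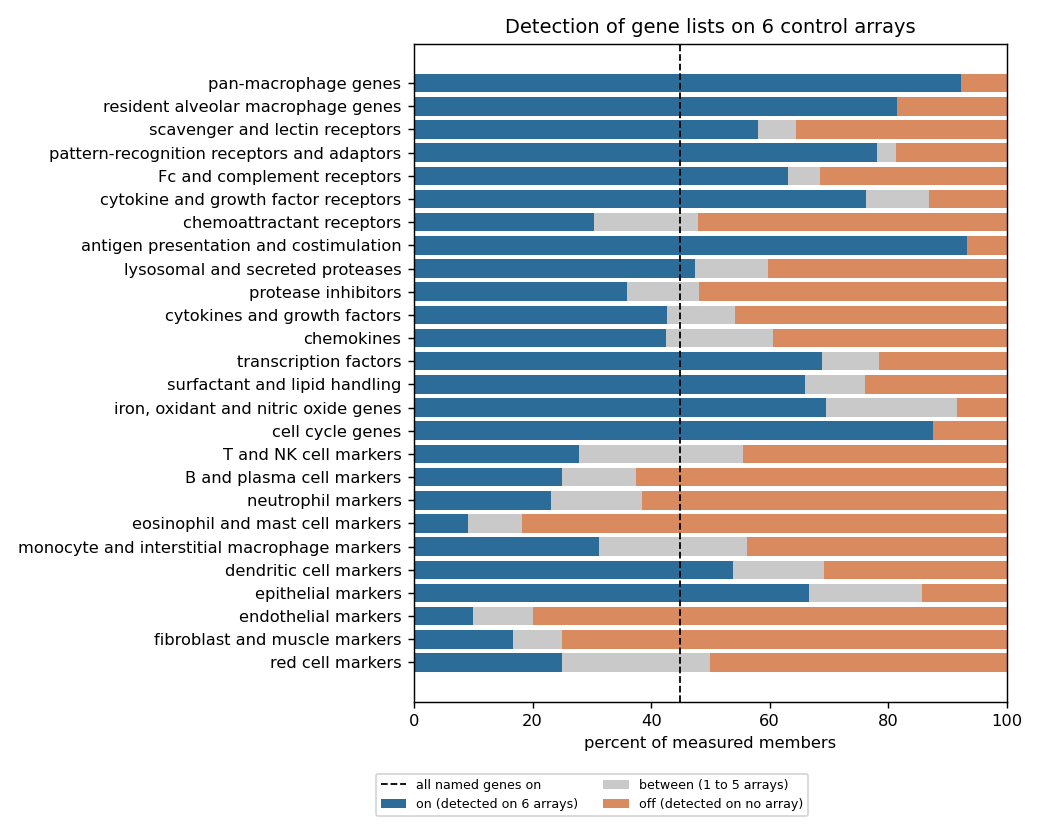
Share of measured genes that were on, intermediate and off in each list of receptors, effectors, regulators and markers of other cells, in percent. Antigen presentation genes were on in 28 of 30 cases and chemoattractant receptors in 7 of 23, and 44.8% of all named genes were on.

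Proteases were on in 27 of 57 cases (47.4%), near the 44.8% of all genes, and differed by class. Of 17 cathepsins and other lysosomal proteases 13 were on and 2 were off, whereas of 16 matrix metalloproteinases 5 were on and 9 were off. Ctsc, the dipeptidase that activates granule proteases, had 14614, 16268 and 19779 scanner units. Ctsb, a lysosomal cysteine protease, had 13726, 15028 and 19228 units (13.91 ± 0.06). Ctsk had 9565, 12572 and 14123 units. The arrays lay within 1.24-fold of each other for these 3 genes. The cathepsins off were Ctsg, known from neutrophil granules, and Ctsw, known from cytotoxic lymphocytes. Mmp12, the macrophage elastase, had only 234.5, 298.4 and 329.6 units (7.40 ± 0.31), and Mmp14, a membrane-type collagenase, had 210.8, 299.9 and 514.3 units (7.57 ± 0.71). Both were among the 2130 genes on with the lowest levels, which ended at 7.63. Mmp24 was on at 9.47 ± 0.15, through 1 of its 4 probes. Mmp2, Mmp3, Mmp7, Mmp8 and Mmp10 were off. Of 14 serine proteases 5 were on, including Furin, the proprotein convertase (13.93 ± 0.09), and Plau, the urokinase plasminogen activator (7.41 ± 0.52). Elane and Prtn3, neutrophil granule proteases, were off. Adam17, the sheddase of TNF, was on at 10.79 ± 0.09.

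Protease inhibitors were on in 9 of 25 cases (36%, against 44.8% of all genes). Cstb, a cytosolic cysteine protease inhibitor, had 14.75 ± 0.07 and Cst3, the secreted cystatin C, had 13.94 ± 0.09. Slpi, an inhibitor of neutrophil elastase, had 15461, 17003 and 20492 scanner units and a level of 14.09 ± 0.018. Its SD was the smallest among genes with a level over 10 and a name that is no clone or prediction. Timp2, an inhibitor of metalloproteinases, was on at 11.85 ± 0.20. Serpina1a, which encodes alpha-1 antitrypsin, was off.

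Among cytokines and growth factors 26 of 61 were on (42.6%), a share near the 44.8% of all genes. At a detection p under 0.01 only 20 of the 61 were on, against 41.7% of all genes, so several lay close to the limit of detection. Il18, an inflammasome-processed cytokine, had 7246, 8789 and 9898 scanner units (13.06 ± 0.11). Il1rn, the IL-1 receptor antagonist, had 2399, 2922 and 4275 units (11.50 ± 0.12), and Tgfb1 had 5492, 6660 and 9810 units (12.74 ± 0.14). These genes differed by 1.31-fold at most between arrays. Tnf, the inflammatory cytokine, had 587.0, 1410 and 1974 units (10.10 ± 0.85). Il1b, its partner in early inflammation, had 1437, 2226 and 5475 units (11.23 ± 0.75). Tnf and Il1b thus varied far more between mice than the genes before. Osm, which encodes oncostatin M, was on at 11.89 ± 0.31, Grn, the precursor of granulins, at 13.64 ± 0.10, and Igf1, an insulin-like growth factor, was on as well. Il2, Il3, Il4, Il5, Il6, Ifnb1, Ifng, Vegfa and Il33 were off. Of 33 chemokines 14 were on (42.4%), also near the share of all genes, and 13 were off. Ccl6, a chemokine known to be made by resting macrophages, had 8643, 9789 and 11160 units (13.26 ± 0.20), and Ccl9 had 2958, 4450 and 6563 units (12.04 ± 0.40). Ccl3, an attractant of leukocytes, had 641.2, 948.8 and 2196 units (9.82 ± 0.51), highest on array 1 and lowest on array 6. Ccl2, the attractant of monocytes, and Ccl11, the attractant of eosinophils, were off.

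Transcription factors were on in 64 of 93 cases, unevenly by class. Of 26 factors known from myeloid cells and alveolar macrophages 25 were on. Tcf7l2, an effector of Wnt signalling, had a level of 12.62 ± 0.14, Bhlhe40, known to support renewal of alveolar macrophages, had 12.34 ± 0.21, and Id2, an inhibitor of helix-loop-helix factors, had 11.64 ± 0.43. The exception was Maf, known in mice as a brake on macrophage renewal, which was off on its 1 probe at 4.47. Of 19 Kruppel-like, AP-1 and EGR factors 17 were on. Klf6 had 12.76 ± 0.17 and Fos 12.69 ± 0.15. Junb, an AP-1 factor induced within minutes of stimulation, had 4016, 5190 and 13493 scanner units (12.61 ± 0.54). Array 1 was its highest and array 5 its lowest. Of 19 interferon, STAT and NF-kB factors 17 were on, with Irf2 at 12.47 ± 0.10, Irf3 at 11.77 ± 0.10, Stat3 at 11.64 ± 0.19 and Rela at 11.64 ± 0.16. Stat5b was off. Of 16 factors of other macrophages or lymphocytes 4 were on and 9 were off, and of 13 epithelial or mesenchymal factors 1 was on and 8 were off. Gata6, the factor of peritoneal macrophages, and Spic, the factor of red pulp macrophages, were off, as were Gata3, Tbx21 and Pax5. Batf (9.90 ± 0.17) and Batf3 (9.49 ± 0.31) were on with every probe. Foxp3, the factor of regulatory T cells, was on at 10.96 ± 0.08 through 1 of its 4 probes, and the other 3, at 5.04, 4.68 and 4.63, were detected on no array. Sall1, the factor of microglia, was on at 6.20 ± 0.17 through 1 of 2 probes.

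Lipid handling genes were on in 33 of 50 cases. Besides Lpl, these included Pla2g15, the lysosomal phospholipase that degrades surfactant lipid (14.29 ± 0.13), Lipa, the lysosomal acid lipase (13.87 ± 0.12), Abcg1, an exporter of cholesterol (13.39 ± 0.15), and Cidec, a lipid droplet protein (12.98 ± 0.13). Abca1, another exporter of cholesterol, was off on its 1 probe. Scd1, a fatty acid desaturase, had 809.0, 1073 and 1204 scanner units (9.83 ± 0.40) and was lowest on array 1. In the leukotriene pathway, Alox5ap (14.47 ± 0.07), Alox5 (12.75 ± 0.23) and Ltc4s (12.46 ± 0.14) were on, and Lta4h was off. Ptgs2, the inducible cyclooxygenase, was off.

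Of 36 iron, oxidant and nitric oxide genes 25 were on and 3 were off. Ftl1, the ferritin light chain, had 14.50 ± 0.09, Prdx1, a peroxiredoxin, had 14.22 ± 0.06, and Cyba, a membrane subunit of the phagocyte oxidase, had 14.46 ± 0.05. Hmox1, the haem-degrading oxygenase, had 802.0, 1146 and 1357 scanner units (9.95 ± 0.30). Arg1 and Nos2, which compete for arginine in activated macrophages, were each detected on 1 of 6 arrays, with levels of 5.15 ± 0.19 and 5.15 ± 0.11. Both were named after their values were seen. Cell cycle genes were on in 21 of 24 cases, among them Bub1b, a mitotic checkpoint kinase (11.66 ± 0.15), Ccnd2, a cyclin that starts the cycle (11.87 ± 0.31), and Mcm5, a subunit of the replication helicase (10.75 ± 0.15). Ccna2, Ccnb2 and Bub1 were off.

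Genes that mark other cells were examined because the labels put the purity at over 90%, which leaves room for other cells. Their counts are to be read against the 44.8% of all genes that were on. Of 18 T and NK cell markers 5 were on and 8 were off, and the mean level over the list ran from 5.97 on array 5 to 6.19 on array 1. Those on were Cd2 (12.74 ± 0.11), Cd8b1 (11.92 ± 0.16, 1 of 3 probes), Thy1, Il7r and Icos, whereas Cd4, Cd8a, Cd28, Cd5 and Cd247 were among those off. A further 5 were intermediate. Cd3g (5.68 ± 0.31) and Cd3d (5.47 ± 0.27), chains of the T cell receptor complex, were each detected on 5 of 6 arrays. Cd3e, another chain, was detected on 1 (5.14 ± 0.19). These 3 genes were named after their values were seen. Of 8 B and plasma cell markers 2 were on, Cd22 and Fcrla, and 5 were off. Of 13 neutrophil markers 3 were on, S100a8 (10.76 ± 0.24), Ltf (9.37 ± 0.91) and Csf3r (8.92 ± 0.05). S100a9, the partner of S100a8, and the granule genes Mpo, Elane, Camp and Ngp were off. Of 11 eosinophil and mast cell markers only Kit was on, through 1 of 3 probes. Of 16 markers of monocytes and interstitial macrophages 5 were on, namely Gpnmb (13.53 ± 0.10), Trem2, Apoe (9.26 ± 0.27), C1qc and C1qb. The 7 off included Ccr2, Ly6c1, F13a1, Vcan and Nr4a1, and 4 were intermediate. Cx3cr1 (5.48 ± 0.29) and C1qa (6.34 ± 0.56) were each detected on 5 of 6 arrays, and were named after their values were seen. Of 13 dendritic cell markers 7 were on (53.8%), at a median level of 8.47, among them Itgae and Clec9a (1 of 3 probes). The 4 off were Flt3, Xcr1, Cd209a and Cd24a. Endothelial markers were on in 1 of 10 cases (Vwf, 10.46 ± 0.19, 1 of 2 probes), and fibroblast and muscle markers in 2 of 12 (Fn1 and Acta2), with Col1a1, Col1a2 and Col3a1 off. Fn1, fibronectin, which macrophages also make, had a level of 12.27 ± 0.40 on its brightest probe. Its other probes had 7.65, 5.75 and 4.86, and the last of these was detected on no array. The mean level over a list ran from 5.36 to 5.55 for B and plasma cells, from 5.89 to 6.10 for neutrophils, from 4.91 to 4.96 for eosinophils and mast cells, and from 6.41 to 6.56 for monocytes and interstitial macrophages. It ran from 6.67 to 6.80 for dendritic cells, from 5.41 to 5.52 for endothelium, and from 5.51 to 5.62 for fibroblasts and muscle. These means rest mostly on genes near background, and members that were on could move more: Ltf differed by 4.39-fold between its highest and its lowest array. What part of the signals of listed genes came from such cells was not tested.

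Epithelial markers were the list of other cells with the largest share on, at 14 of 21, and 3 were off. The mean level over the list ran from 7.16 on array 1 to 7.62 on array 3. Abca3, the lipid transporter of type II cells, had 11.93 ± 0.10, Tppp3, known from ciliated cells, had 11.81 ± 0.17, and Pdpn, known from type I cells, had 11.13 ± 0.29. Epcam, Krt18 and Sftpa1 were off. How much of these signals came from epithelial cells in the lavage was not tested.

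Sex-linked transcripts were read because the labels give no sex. Xist, the RNA that silences an X chromosome in females, was on with all 4 probes, and its lowest, median and highest signals were 2101, 2550 and 3610 scanner units (11.25 ± 0.23). Eif2s3y and Kdm5d, genes of the Y chromosome, were off on every array. Uty, another Y gene, was detected on 5 of 6 arrays through 1 of its 4 probes, at 5.65 ± 0.29. Xist was thus on, and Eif2s3y and Kdm5d were off, on all 6 arrays.

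The spread between the 6 mice was small for most genes on. Over the 8519 genes whose brightest probe was on, the median SD was 0.157 on the log2 scale. The highest array exceeded the lowest by over 2-fold for 377 of these genes (4.43%) and by over 4-fold for 14. Dim genes spread more: the median SD was 0.222 over the 2130 genes with the lowest levels and 0.117 over the 2130 with the highest. Array 1 was the highest array for 128 of the 377 genes and the lowest for 130, and array 2 was the highest for 98 and the lowest for 89. Without array 1 the count of 377 became 166. With no background subtracted, 93 genes were over 2-fold. In the authors' processed values, which differ in several steps, 65 were.

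**Figure D3:**
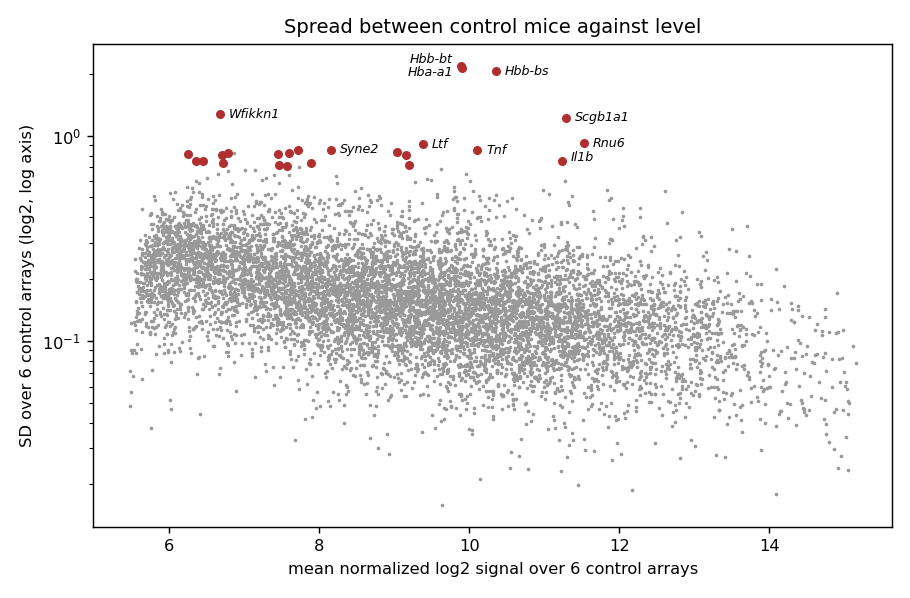
SD over the 6 control arrays (log2, logarithmic axis) against the mean normalised log2 level of each gene on, with the 25 genes of largest SD in red. The 3 globin genes lie highest, with SDs from 2.06 to 2.19, and the SD of other genes declines with the level.

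The 3 genes with the largest SD were globin genes, which red cell precursors use to make haemoglobin. Hba-a1, an alpha globin, had a lowest, median and highest signal of 229.3, 1078 and 9005 scanner units. Hbb-bs and Hbb-bt, the adult beta globins, had 291.7, 1389 and 11830 units and 220.9, 1070 and 8659 units. Between the highest and the lowest array the normalised signals differed by 96.1-fold for Hba-a1, 78.9-fold for Hbb-bs and 101-fold for Hbb-bt. These folds rest on arrays 1 and 2. Without array 1 they were 12.4-fold, 12.8-fold and 12.0-fold, and without array 2 they were 19.8-fold, 17.2-fold and 24.8-fold. The order of the arrays was the same for all 3 genes: array 2 was highest, then arrays 6, 4, 3 and 5, and array 1 was lowest. These probes can share signal, since the beta globin genes are near-identical. Hba-a1 was the only gene on among 4 measured red cell markers, a list that held neither Hbb-bs nor Hbb-bt. Alas2, the enzyme of haem synthesis in red cell precursors, was detected on array 2 and on no other array, and Slc4a1, the anion exchanger of red cells, was off on all 6. Alas2 was named after its values were seen. The mean level over the 4 red cell markers ran from 5.04 on array 1 to 7.36 on array 2. What part red cells had in the globin signals was not tested.

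The promoters of the globin genes are shown because these genes moved together across the mice, beside that of Chil3, a bright and steady marker. The sequences are those of RefSeq on the GRCm38.p6 build, from 250 bases before to 50 bases after the start of the gene, on the strand of the gene. Capitals mark ATATAA, which holds the core of the TATA box, and GATAAG, the core that GATA factors recognise. Both were searched on either strand, do not overlap here, and were chosen after the sequences were seen. Hba-a1 is at chr11:32283422-32283721 (plus strand), Hbb-bs at chr7:103827879-103828178 (minus strand), Hbb-bt at chr7:103813874-103814173 (minus strand) and Chil3 at chr3:106167515-106167814 (minus strand).
Hba-a1: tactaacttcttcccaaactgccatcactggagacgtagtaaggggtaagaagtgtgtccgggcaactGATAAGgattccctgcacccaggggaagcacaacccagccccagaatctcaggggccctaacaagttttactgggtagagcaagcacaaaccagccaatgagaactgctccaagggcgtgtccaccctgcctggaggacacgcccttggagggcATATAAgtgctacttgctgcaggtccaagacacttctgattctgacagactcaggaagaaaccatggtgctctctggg
Hbb-bs: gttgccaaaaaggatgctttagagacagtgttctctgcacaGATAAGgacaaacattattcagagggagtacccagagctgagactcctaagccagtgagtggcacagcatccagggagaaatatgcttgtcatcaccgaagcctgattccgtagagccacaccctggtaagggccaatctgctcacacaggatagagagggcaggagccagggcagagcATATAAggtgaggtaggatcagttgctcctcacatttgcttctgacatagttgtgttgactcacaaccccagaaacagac
Hbb-bt: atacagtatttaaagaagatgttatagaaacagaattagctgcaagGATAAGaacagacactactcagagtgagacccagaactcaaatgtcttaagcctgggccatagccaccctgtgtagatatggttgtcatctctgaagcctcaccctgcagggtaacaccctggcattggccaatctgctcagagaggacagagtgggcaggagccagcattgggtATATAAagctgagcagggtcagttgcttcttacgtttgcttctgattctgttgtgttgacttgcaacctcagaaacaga
Chil3: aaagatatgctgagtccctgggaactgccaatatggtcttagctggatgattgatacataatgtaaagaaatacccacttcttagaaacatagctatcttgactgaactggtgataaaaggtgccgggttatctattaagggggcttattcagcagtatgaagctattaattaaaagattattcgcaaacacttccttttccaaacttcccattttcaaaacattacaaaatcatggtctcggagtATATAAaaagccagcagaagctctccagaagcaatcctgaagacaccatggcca
Each window holds 1 ATATAA near the start, which lies before the start in the globin windows and spans it in the Chil3 window. Each globin window holds 1 GATAAG further upstream, and the Chil3 window holds 0. Of 27025 RefSeq promoters of the same length, 10.2% hold ATATAA and 7.43% hold GATAAG. The ratio of observed to expected CpG was 0.188 for Hba-a1, 0.108 for Hbb-bs, 0.0633 for Hbb-bt and 0.268 for Chil3, all below the median of 0.389 over RefSeq promoters.

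Another set of variable genes is known from conducting airway epithelium. Scgb1a1, the club cell secretory protein, had a lowest, median and highest signal of 1380, 2443 and 10593 scanner units (11.28 ± 1.22). Array 3 was its highest and array 1 its lowest, 10.7-fold apart, and without array 3 the fold was 2.91. Cyp2f2, a cytochrome P450 of club cells, had 449.1, 633.6 and 1020 units (9.04 ± 0.84), and Cbr2, a lung carbonyl reductase, had 247.1, 322.1 and 493.6 units (7.71 ± 0.85). Arrays 3, 5 and 6 were the 3 highest for both of these. Wfdc2, a secreted airway protein, Cyp2a5, another cytochrome P450, Ces1d, a carboxylesterase, and Bpifb1, a secreted airway protein of the BPI fold family, were also among the 25 genes with the largest SD. Arrays 1 and 2 were both below the median for 7 of 7 airway genes, and they were the lowest pair for 5 of 7. The set was named after its values were seen. Of the 21 epithelial markers 14 were on, among them Cdh1, which encodes E-cadherin (9.49 ± 0.13, through 1 of 2 probes), and the 3 off were Epcam, Krt18 and Sftpa1. What part epithelial cells had in this spread was not tested.

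**Figure D4:**
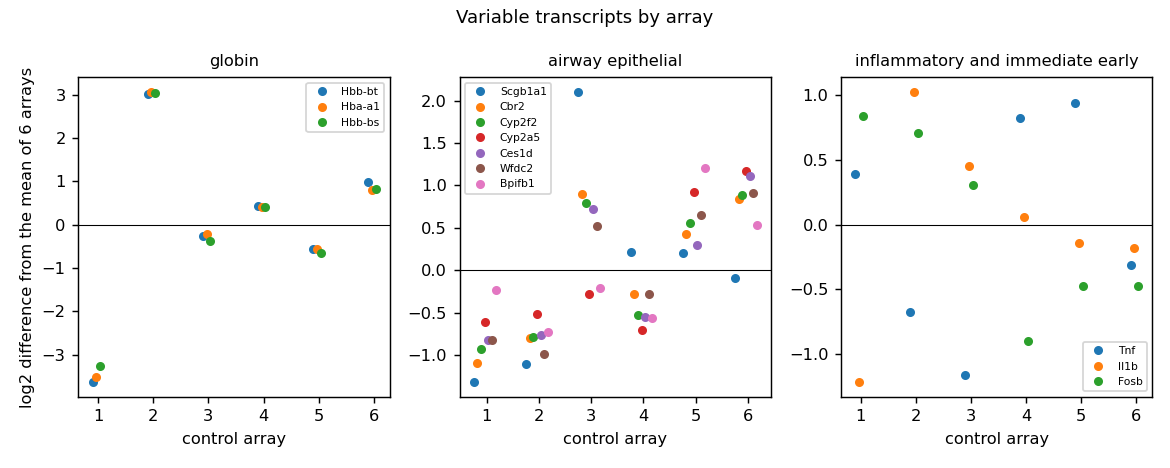
Log2 difference of each control array from the mean of the 6 for globin genes, airway epithelial genes, and inflammatory and immediate early genes, 1 point per gene and array. Globin genes are highest on array 2 and lowest on array 1, and arrays 1 and 2 are low for the airway genes. Tnf, Il1b and Fosb differ from each other in the order of arrays.

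Tnf, Il1b and Fosb, inflammatory and immediate early genes, were also among the 25 genes with the largest SD and did not share an order of arrays. They were set side by side after their values were seen, and other genes of these kinds were steadier, such as Fos, Il18 and Il1rn above. Tnf had normalised levels of 10.49, 9.42, 8.94, 10.92, 11.04 and 9.79 on arrays 1 to 6. Il1b had 10.01, 12.26, 11.69, 11.29, 11.09 and 11.05, and Fosb, an AP-1 factor induced by stimulation, had 10.03, 9.91, 9.50, 8.29, 8.72 and 8.72. Tnf was highest on array 5, Il1b on array 2 and Fosb on array 1, and the lowest arrays were 3, 1 and 4. The highest exceeded the lowest by 4.29-fold for Tnf, 4.74-fold for Il1b and 3.35-fold for Fosb. Without array 1 the fold of Il1b was 2.31. Of the other genes of largest SD, Ltf, the iron-binding lactoferrin, was highest on arrays 6 and 5 (9.37 ± 0.91), and Hp, the haemoglobin-binding haptoglobin, was highest on array 3 (6.46 ± 0.75). Rnu6, the U6 spliceosomal RNA, had 13.06 on array 1 and 12.26 on array 2, and between 10.86 and 11.13 on the other arrays. Wfikkn1, a secreted protein with protease inhibitor domains, had 8.78 on array 1 and 5.48 on array 5, 9.89-fold apart, and 4.15-fold without array 1. Syne2, a protein of the nuclear envelope, had 9.80 on array 1 and at most 8.28 on the others. Array 1 was the highest for 8 of the 25 genes of largest SD, array 2 for 6, array 6 for 5, arrays 3 and 5 for 3 each, and array 4 for 0. Slc15a2, Inmt, Mfsd6l, Dip2b, Galnt3, Il20rb and Mmp14 completed the 25, with SDs from 0.71 to 0.82. Arrays 1 and 2 were the highest pair for Fosb, Rnu6, Wfikkn1, Mfsd6l, Dip2b, Il20rb and Mmp14, and not for the rest of the 25. They were also the brighter arrays before normalisation, and the part of this in the spread was not tested. That pairing was picked out after the values were seen. For 15 of the 25, leaving out 1 array cut the fold by over 1.5 times, and that array was array 1 for 9 of them, arrays 2, 3 and 5 for 2 each, and arrays 4 and 6 for 0.

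At the other end, 10 genes with a level over 10 had SDs from 0.018 to 0.026. They were Slpi, Gnptg, Man2a1, Dnajc16, Mdm2, Eef1a1, Uxt, Prmt3, Rps2 and Cyp4f16. Gnptg and Man2a1 act on glycoproteins of the secretory pathway, Mdm2 restrains p53, and Eef1a1 and Rps2 serve translation. Gnptg had 4155, 4413 and 6052 scanner units before normalisation and a level of 12.16 ± 0.019 after it. With arrays scaled to a common median instead of matched by quantiles, the SD of Gnptg was 0.143 and that of Slpi 0.0968, so their rank as the steadiest genes belongs to the normalisation used.

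Promoter composition differed between genes on and off as a whole. Of the array's named genes, 15238 had a promoter in the RefSeq table. The median CpG ratio was 0.783 for 7022 genes on, 0.559 for 1532 intermediate genes and 0.322 for 6684 genes off. Split by ratio into 4 equal groups, from low to high, 13.9%, 36.4%, 63.5% and 70.6% of genes were on. GGGCGG, the GC box, was present in 66.3% of promoters of genes on and 32.7% of genes off, against 35.9% of RefSeq promoters. ATATAA was present in 4.17% of genes on and 13.3% of genes off, and GATAAG in 4.53% and 8.60%. GAGGAAGT, a form of the motif that PU.1 recognises, was present in 3.39% of genes on and 2.36% of genes off, against 3.28% of RefSeq promoters. The 25 genes with the largest SD had a median CpG ratio of 0.188 over 21 promoters, and the 30 brightest had 0.652 over 24. These shares are descriptions, since the genes are not independent and their probes differ.

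**Figure D5:**
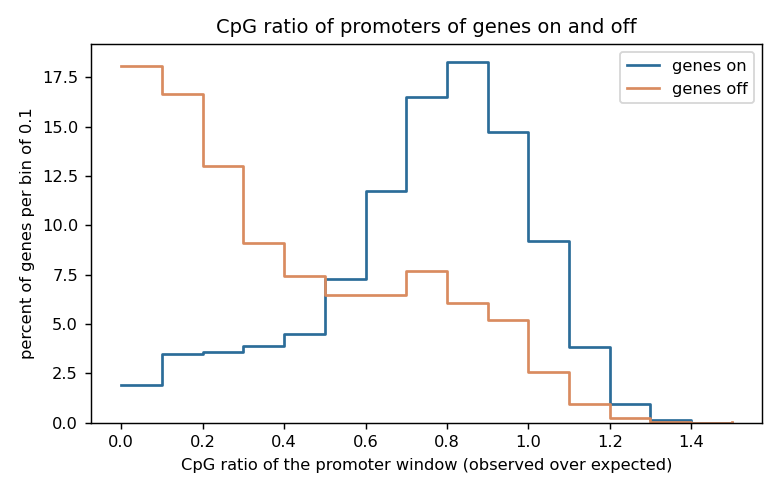
Distribution of the observed over expected CpG ratio in promoter windows of genes on and genes off, as the percent of genes per bin of 0.1. Genes on have a median ratio of 0.783 and genes off one of 0.322, and the 2 distributions overlap.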

How the data were processed

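Per the file headers, the deposited scanner table pairs an intensity with a detection p-value in every array. The medians of the intensity columns differ, so the arrays had not been normalised to each other. The sources used here name no scanner software or saturation limit. The authors' processed intensity matrix (lumi, per the submitters' processing notes) was an alternative. Each control column of it had a median of 227.8 and a lowest value of 200.3 and reached 38732.5, with a Pearson correlation of at least 0.996 with its own scanner column on the linear scale, so it was neither log-transformed nor centred by gene. The origin of the high floor is unknown.

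Only the 6 control arrays were used, in limma 3.58.1 under R 4.3.3: neqc, which estimated background from the detection p-values, an offset of 16, quantile normalisation over these arrays, and log2. The step was tested on simulated data. Of 45281 probes, 34885 had 1 gene symbol, 18 several and 10378 none, and 29 symbols were updated to RefSeq. A gene's level is that of its probe with the highest mean.

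One group allows no contrast, so no test was run. The arrays are separate animals per the labels, and their number limits the precision.

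Named genes were the 30 brightest, up to 5 on (brightest) and 5 off (list order) per role of 27 lists, the 25 largest SDs, the 10 smallest SDs above a level of 10, and fixed markers. Clone and predicted names were left out of the SD ranks. The lists held 723 genes, of which 670 were matched and 383 were on. Members and lists were chosen with earlier results of these data known. Alternatives were other background corrections, scalings, detection rules and the omission of each array.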

Additional observations from a re-analysis of the deposited data

Results flagged for a closer look

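A level was singled out where 1 of the 6 arrays lay apart from the rest, that is where its gap to the nearest of the others as a share of the whole range exceeded Dixon's critical value for 6 samples. This held for 27 of 279 named genes on. Chance alone gives about 1 in 20 for a gene named without regard to its values. Some of the named genes were picked by their SD on these arrays, and all share the same arrays. The count can therefore not be judged against that rate. All levels are normalised log2 signals.

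Array 1 accounted for 15 of the 27. It was low for Laptm5 (14.67, others from 14.82), H2-D1 (14.44, others from 14.54), Prdx2 (12.61, others from 12.84), Fcgr3 (11.93, others from 12.34), Csf1r (10.79, others from 11.03) and Il13ra1 (10.85, others from 11.03). It was also low for Rac2, a GTPase of the phagocyte oxidase (10.49, others up to 11.07), Ifngr1 (10.50, others from 10.92), Tlr8 (9.48, others from 10.25) and Itgb2 (9.51, others from 9.90). Array 1 was high for Pilra, an inhibitory receptor (13.24, others up to 12.98), Bub1b (11.95, others up to 11.66), Irf1, an interferon response factor (11.93, others up to 11.55), Nod1 (11.61, others up to 11.30) and Syne2 (9.80, others up to 8.28). The receptors Fcgr3, Csf1r, Il13ra1, Ifngr1 and Tlr8 and the integrin chain Itgb2 were thus flagged as low on array 1, and the receptor Pilra as high. The mean levels of the receptor lists, which include genes off near background, were mixed on array 1. The mean level of the cytokine and growth factor receptor list was highest on array 1, and that of the Fc and complement receptor list was lowest. The other receptor lists had neither extreme on array 1. Array 1 also had the highest background, 148.8 scanner units, and the part of this in the levels was not tested.

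Array 2 was low for Abca3 (11.73) and Siglec1 (11.56). Array 3 was low for Tnfsf13b, which encodes the B cell factor BAFF (9.97), C1qc, a chain of complement C1q (7.07), and Kit (6.57). Array 4 was low for Itm2b, a membrane protein (14.95), and Cebpb (14.67), and high for Klf6 (13.09). Array 6 was low for Rpl38, a ribosomal protein (14.80), and for Il1a, which encodes interleukin 1 alpha (8.09, others from 8.77), and high for Ccnd3, a D-type cyclin (11.95), and Csf3r (9.01).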

How the results depend on the processing

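The count of 8522 genes on lay between 7942 and 9361 under a detection p under 0.01, under detection on at least 5 or at least 3 of 6 arrays, and without each array (8553 to 8592). It was 5233 where every named probe of a gene had to be detected. Of the 383 list members on, 365 were on at a detection p under 0.01. Between 28 and 30 of the 30 brightest genes were shared with every other background correction, scaling and omission of an array tried.

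The spread depended more on the processing. Against 377 genes over 2-fold and a median SD of 0.157, there were 93 genes and 0.114 without background correction, 164 genes with normexp at an offset of 50, and 65 genes and 0.0943 in the authors' processed values. Median scaling gave 517 genes and a median SD of 0.199. Leaving out each array gave 166 to 348 genes, the lowest without array 1, and a median SD of 0.135 to 0.160. Of the 25 genes with the largest SD, 13 were shared with the authors' values, 16 without background correction, 20 with normexp, 23 with median scaling, and 19 to 23 without each array. The omission of the array with the highest globin signal, array 2, was chosen after the data were seen and gave 258 genes. The folds of named genes without each array were added then too. The causes were not tested. No paired analysis was possible because the values come from 1 group and from no test. Signals near background limit what can be said of genes off or of dim genes.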
